A study of Mus musculus with 6 samples.

Results

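The interferon-stimulated genes and nucleic acid sensors of mouse liver were described as a module of 37 genes. The members were a given list of gene symbols, matched by symbol to the Ensembl identifiers of the deposited RNA-Seq table. All 37 were found once each among the 56305 genes of the table, and all 37 passed the expression filter. By role they comprised 20 antiviral effectors, 6 regulators (5 transcription factors and the brake Usp18), 4 genes of cytosolic RNA sensing and 7 interferon-inducible GTPases.

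Livers of WT and Vps15LKO mice were compared, 3 per genotype, with 1 library per liver. Vps15LKO mice (AlbCre+;Vps15 f/f) lacked Vps15, the regulatory subunit of class 3 PI3K, after chronic deletion by a Cre recombinase under the albumin promoter, which is active mainly in hepatocytes. Which liver cells had lost the gene was not measured in these libraries. Control mice were labelled WT, and the sources used here do not spell out their Vps15 allele or Cre status in this experiment. All mice were male, had free access to chow at 5 weeks of age, and gave their livers at Zeitgeber time (ZT) 6, which is 6 h after lights on. Values are normalized counts, that is reads per gene divided by the DESeq2 size factor of the library. The libraries held 16137093 to 18110223 reads on genes, with size factors of 0.742 to 0.801 in WT and 1.23 to 1.41 in Vps15LKO. When every library was instead scaled to the same total of reads, the median over all tested genes of the log2 fold change moved from −0.02 to 0.70. Fold changes below are Vps15LKO over WT on the log2(normalized count + 1) scale, and the total-read value is given beside the deposited one for the members and named pathway genes whose sign or call depends on the choice. A gene was called higher or lower at an adjusted p under 0.05 (limma, Benjamini-Hochberg over 15430 tested genes) and a fold of at least 1.2. The deleted gene, Pik3r4 (Vps15, chromosome 9, 105642978 to 105687657 in GRCm38), had 508, 573 and 460.0 normalized counts in WT and 341, 362 and 355 in Vps15LKO livers, a log2 fold change of −0.54 that became 0.19 and was not called under total-read scaling. The table gives no separate count for the floxed part of the gene.

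Interferons are secreted proteins that warn cells of infection. Type I interferons (alpha, beta) and type III interferons (lambda) signal through Jak1 and Tyk2 to a complex that holds Stat2 and Irf9 and binds the interferon-stimulated response element (ISRE) and switches on antiviral genes. Type II interferon (gamma) acts through Jak1 and Jak2 on genes with a gamma-activated site (GAS) and is the main inducer of the immunity-related GTPases. Cytosolic RNA sensors of the RIG-I family pass their signal through Mavs, and the DNA sensor cGAS through Sting, to Irf3 and Irf7, which can also bind ISRE-type sequences directly.

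Of the 37 genes, 23 were called higher in Vps15LKO liver, 1 (Iigp1) was called lower and 13 were not called. This was 62.2% of the members called higher, beside 33.5% of all tested genes called higher and 33.0% called lower in the same comparison. The members had a median log2 fold change of 1.14 (2.21-fold), beside −0.02 over all genes tested. In 23 genes the 3 Vps15LKO values all lay above the 3 WT values, in 1 they all lay below, and in 13 the genotypes overlapped. Over all tested genes, 36.4% had every Vps15LKO value above WT and 36.8% had every one below. The 23 rises ran from 1.25-fold to 27.4-fold, and 10 of them were at least 4-fold. Under total-read scaling the 13 members without a call were called higher too, which made 36, and Iigp1 was still called lower, beside 66.8% of all tested genes called higher and 11.1% lower on that scale, with a member median of 1.86 beside 0.70 for all genes.

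Counted by role, 16 of the 20 antiviral effectors were called higher and none lower, with a median log2 fold change of 2.10. Of the 6 regulators, 2 were called higher (median 0.25), of the 4 genes of RNA sensing 3 (median 0.54), and of the 7 GTPases 2 were called higher and 1 lower (median 0.14). The shares called higher among the regulators (33.3%) and GTPases (28.6%) were thus close to or below the 33.5% of all tested genes. Under total-read scaling all 20 effectors, all 6 regulators, all 4 genes of RNA sensing and 6 of the 7 GTPases were called higher. The role groups were not tested against each other.

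**Figure D1:**
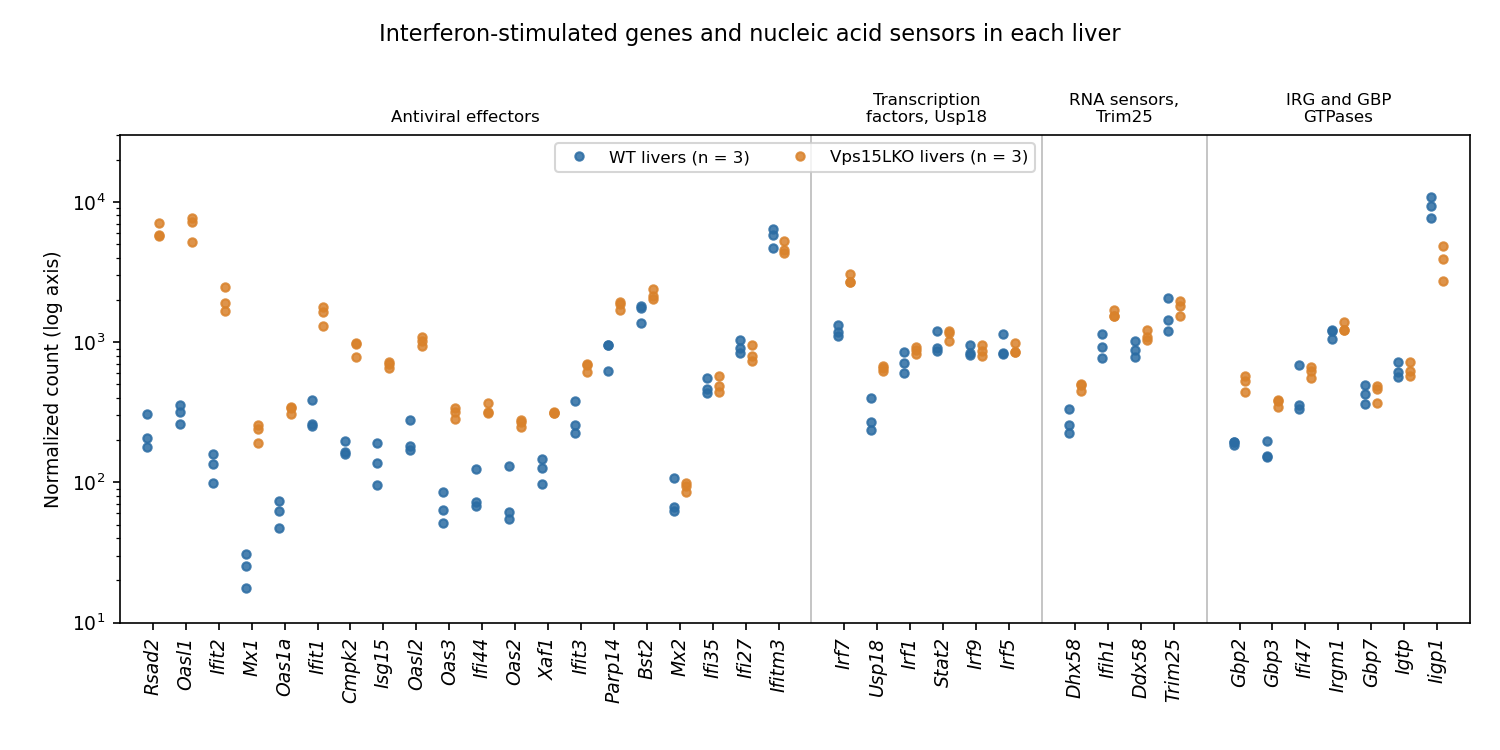
Normalized counts (log axis) of the 37 genes in each of the 3 WT and 3 Vps15LKO livers, ordered by role and then by fold change; each point is 1 liver. The points of both genotypes are well apart from Rsad2 to Parp14 and for Irf7, Usp18, Gbp2 and Gbp3, lie together for most transcription factors, and are inverted for Iigp1.

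The largest rises were in the effectors Rsad2, Oasl1, Ifit2 and Mx1. Rsad2 (viperin, chromosome 12, 26442746 to 26456452), a radical SAM enzyme that makes a chain-terminating nucleotide, had 206, 179 and 306 normalized counts in WT livers and 7079, 5669 and 5851 in Vps15LKO livers. Every Vps15LKO liver was thus far above every WT liver, and the log2 fold change reached 4.78, with SE (standard error) 0.19 and adjusted p = 5.4e-07 (limma). Oasl1 (chromosome 5, 114923240 to 114937915), an oligoadenylate synthetase-like protein without synthetase activity that is known to restrain translation of Irf7, had 316, 259 and 355 in WT and 7160.0, 5193 and 7729 in Vps15LKO, a log2 fold change of 4.42, with SE 0.17 and adjusted p = 4.6e-07 (limma). Ifit2 (chromosome 19, 34550694 to 34576419), a tetratricopeptide-repeat protein that blocks translation of viral RNA, had 98.1, 136 and 159 in WT and 2486, 1670.1 and 1909 in Vps15LKO, a log2 fold change of 3.94. Mx1 (chromosome 16, 97447035 to 97462907) encodes a dynamin-like GTPase whose full-length form blocks orthomyxoviruses. Whether the allele of these mice encodes that form was not examined. Mx1 had the lowest WT level of all members, also per length, at 25.2, 17.5 and 31.0. It had 255, 192 and 239 in Vps15LKO, a log2 fold change of 3.19. The lowest Vps15LKO liver stood above the highest WT liver by a factor of 18.5 in Rsad2, 14.6 in Oasl1, 10.5 in Ifit2 and 6.19 in Mx1.

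Rsad2 lies 12751 bases from Cmpk2 (chromosome 12, 26469204 to 26479837), the mitochondrial kinase that supplies nucleotides for viperin and is transcribed from the other strand. Cmpk2 had 159, 164 and 198 in WT and 964, 981 and 784 in Vps15LKO livers. It was called higher, with a log2 fold change of 2.38 (SE 0.13). The ratio of Rsad2 to Cmpk2 reads within a liver, which no scaling can change, was 1.29, 1.09 and 1.54 in WT and 7.35, 5.78 and 7.47 in Vps15LKO, so the pair differed in its balance in every liver.

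The oligoadenylate synthetases make the second messenger that activates RNase L. Oas1a (chromosome 5, 120896256 to 120907521) had 62.3, 47.5 and 74.1 normalized counts in WT and 308, 347 and 339 in Vps15LKO, a log2 fold change of 2.44. Oas3 (63.6, 51.2 and 84.9 in WT; 315, 337 and 283 in Vps15LKO) and Oasl2 (169.7, 181 and 279 in WT; 943, 1017 and 1082 in Vps15LKO) rose by log2 fold changes of 2.24 and 2.30. Oas2 had 54.4, 61.2 and 131 in WT and 267, 279 and 249.7 in Vps15LKO, a log2 fold change of 1.79 with the largest standard error of the members called higher (0.29), with WT replicate 3 well above the other WT livers. The Oas genes form a family of related sequences, and how reads mapping to several genes were counted is not given in the sources used here. The split of reads between the closest copies is thus uncertain.

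Isg15, Ifit1 and Ifit3 rose as well. Isg15 (chromosome 4, 156199424 to 156200818), a ubiquitin-like protein that is conjugated to other proteins, had 138, 94.9 and 191 in WT and 696, 653 and 716 in Vps15LKO, a log2 fold change of 2.33, with SE 0.22 and adjusted p = 3.3e-05 (limma). Ifit1 (chromosome 19, 34640871 to 34650009), which binds viral RNA lacking cap methylation, had 261, 254 and 388 in WT and 1651, 1309.5 and 1767 in Vps15LKO, a log2 fold change of 2.40. Ifit3, an adaptor that stabilizes Ifit1, rose less, from 225, 256 and 379 to 613, 700.1 and 684 (log2 fold change 1.25).

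The remaining effectors that were called covered a wide range. Ifi44 (72.9, 67.5 and 124 in WT; 314, 369.5 and 315 in Vps15LKO) had a log2 fold change of 1.95. Xaf1, a pro-apoptotic partner of XIAP, rose from 96.8, 127 and 146 to 312, 310.4 and 316 (1.36). Parp14, a mono-ADP-ribosyltransferase, rose from 619, 959 and 956 to 1863, 1934 and 1694 (1.14). Bst2 (tetherin), which holds budding virions at the cell surface, was already high in WT at 1764, 1360.3 and 1813 and had 2013, 2407 and 2134 in Vps15LKO. Its log2 fold change of 0.42 (adjusted p = 0.020, limma) did not pass without WT replicate 2 (0.28) or without Vps15LKO replicate 2 (0.34).

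The 4 effectors that were not called had overlapping values. Ifitm3, a membrane protein that hinders viral fusion, had 5769, 4667 and 6427 in WT and 4328, 5236 and 4503 in Vps15LKO (log2 fold change −0.25 as deposited, 0.47 under total-read scaling). Ifi27 had 1033, 838 and 913 in WT and 799, 961 and 729 in Vps15LKO (−0.17, and 0.56 under total-read scaling). Ifi35 had 460.1, 433 and 553 in WT and 444, 571 and 484 in Vps15LKO (0.05, and 0.78 under total-read scaling). Mx2, annotated as a polymorphic pseudogene next to Mx1, had 66.3, 62.5 and 108 in WT and 98.5, 85.1 and 94.1 in Vps15LKO (0.27, and 0.99 under total-read scaling). All 4 were called higher on that scale.

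**Figure D2:**
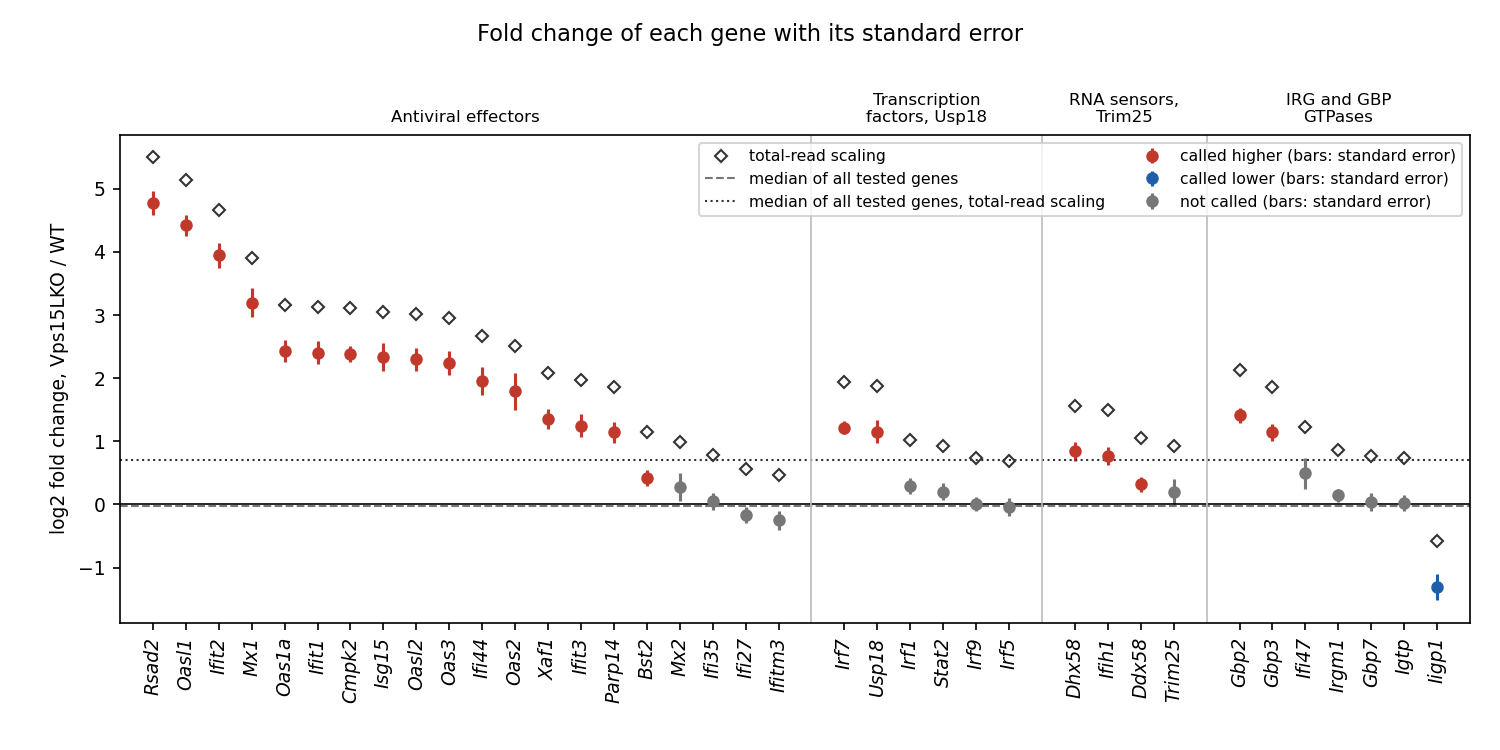
The log2 fold change of each gene (circles, coloured by call, with bars of 1 standard error from limma, n = 3 livers per genotype) and its value under total-read scaling (diamonds), with lines at the medians of all tested genes under each scaling. Fold changes fall from 4.78 (Rsad2) to −0.25 (Ifitm3) among the effectors, and Iigp1, at −1.31, is the member below 0 under both scalings.

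Among the regulators, Irf7 and Usp18 rose. Irf7 (chromosome 7, 141262706 to 141266481), the interferon regulatory factor that amplifies type I interferon responses, had 1183, 1112 and 1324 normalized counts in WT and 2665, 3079 and 2679 in Vps15LKO livers, a log2 fold change of 1.22, with SE 0.10 and adjusted p = 2.0e-05 (limma). Usp18 (chromosome 6, 121245906 to 121270917), which removes Isg15 from its targets and dampens signalling at Ifnar2, had 235, 269 and 398 in WT and 625, 654 and 679.7 in Vps15LKO (log2 fold change 1.15). The other 4 factors were not called.

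Stat2 had 863, 903 and 1192 in WT and 1019, 1194 and 1158 in Vps15LKO (log2 fold change 0.20, adjusted p = 0.22, limma, and 0.93 under total-read scaling). Irf9, its partner at the ISRE, had 949, 836 and 813 in WT and 795, 951 and 864 in Vps15LKO (0.01, and 0.73 under total-read scaling). Irf5, which acts downstream of Toll-like receptors, had 819, 836 and 1138 in WT and 849, 989 and 855 in Vps15LKO (−0.04 as deposited, 0.69 under total-read scaling). The values of these 3 genes overlapped between genotypes on the deposited scale, and all 3 were called higher under total-read scaling. Stat2 was also called higher without WT replicate 3 (0.34). Irf1, a factor induced by interferon gamma, had 713, 848 and 601 in WT and 882, 922 and 828 in Vps15LKO. Its log2 fold change of 0.30 missed the threshold (adjusted p = 0.072, limma), but it was called higher by edgeR (0.33) and by limma voom (0.34) on the recovered reads, and under total-read scaling (1.021).

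All 3 RIG-I-like receptors were called higher, each with a log2 fold change under 1. Ifih1 (Mda5, chromosome 2, 62595798 to 62646255), a sensor of long double-stranded RNA, had 774, 928 and 1148 in WT and 1707, 1545 and 1538 in Vps15LKO, a log2 fold change of 0.77 (adjusted p = 0.0013, limma). Dhx58 (Lgp2), which modulates the other sensors, had 256, 225 and 333 in WT and 451, 491 and 501 in Vps15LKO (log2 fold change 0.84). Ddx58 (RIG-I, chromosome 4, 40203773 to 40239828), a sensor of RNA with a 5′-triphosphate end, had 779.7, 884 and 1015 in WT and 1027, 1219.6 and 1092 in Vps15LKO (log2 fold change 0.32, adjusted p = 0.039, limma). The highest WT liver and the lowest Vps15LKO liver were nearly equal for Ddx58, and its call was lost without WT replicate 1 (0.23), without WT replicate 2 (0.32) and without Vps15LKO replicate 1 (0.38), 2 (0.25) or 3 (0.33). Trim25, a ubiquitin ligase that aids RIG-I signalling, had 1195, 1426 and 2077 in WT and 1812, 1955 and 1523 in Vps15LKO (0.20, not called, and 0.93 and called higher under total-read scaling).

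The GTPases went in different directions. Gbp2 (chromosome 3, 142620602 to 142638008) and Gbp3, guanylate-binding proteins that attack the vacuoles of intracellular pathogens, rose from 186, 195 and 193 to 527, 574 and 439.9 (log2 fold change 1.41) and from 151, 199 and 155 to 387, 379 and 343 (1.14). Gbp7 of the same cluster had 361, 427 and 491 in WT and 485, 461 and 366 in Vps15LKO (0.04, not called, and 0.76 and called higher under total-read scaling). The ratio of Gbp2 to Gbp7 within a liver was 0.515, 0.456 and 0.393 in WT and 1.09, 1.24 and 1.201 in Vps15LKO.

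Iigp1 (Irga6), an effector GTPase that loads onto parasite vacuoles, was the most abundant GTPase of the module in WT, at 7732, 9326 and 10839 normalized counts, and had 3908, 4810.2 and 2744 in Vps15LKO livers. Every Vps15LKO value was below every WT value, and the log2 fold change was −1.31, with SE 0.21 and adjusted p = 0.00065 (limma). Under total-read scaling it was called lower as well (−0.58). The regulatory GTPases Irgm1 (1048, 1225 and 1199.7 in WT; 1223, 1391 and 1221 in Vps15LKO) and Igtp (611, 721 and 563 in WT; 626, 723 and 569 in Vps15LKO) had log2 fold changes of 0.14 and 0.02 and were not called, while under total-read scaling both were called higher (0.87 and 0.74). Ifi47 had 333, 358 and 682 in WT and 622, 666 and 553 in Vps15LKO (0.50, adjusted p = 0.10, limma), and without WT replicate 3 it was called higher (0.82), as it was under total-read scaling (1.22).

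Some members share exon sequence with other genes, and strand use in the counting is not given in the sources used here, so reads there cannot be assigned with certainty. Gbp7 shares 637 bases with the predicted gene Gm43802 and Igtp shares 162 with Irgm2, both on the same strand. Irf5 shares 411 bases with Tnpo3 and Ifi35 shares 290 with Gm11626, both on the other strand. The shared parts of the other members that overlap a gene were at most 141 bases, among them Dhx58 with its antisense Dhx58os.

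The order of the members by level per kilobase of exon also differed between genotypes. Ifitm3 stood first in both, at 8291 normalized counts per kb in WT and 6916 in Vps15LKO. Oasl1 moved from rank 18 (119 per kb) to rank 2 (2567), Rsad2 from rank 26 (53.1) to rank 4 (1430.2), Ifit2 from rank 29 (33.4) to rank 10 (515) and Isg15 from rank 11 (187) to rank 5 (911). Iigp1 moved from rank 3 (1597) to rank 7 (656). Mx1 was last in WT (6.49 per kb), and even after its rise stood at rank 33 of 37 (60.4), close to Oas2 (59.6). The summed level of all 37 members was 29847, 30933 and 37777 normalized counts in WT and 52518, 52227 and 49856 in Vps15LKO livers. The effectors alone summed to 11659, 10215 and 13615 in WT and 32909, 30222 and 31902 in Vps15LKO, while the GTPases summed to 10421, 12451 and 14123 in WT and to 7777, 9005 and 6237 in Vps15LKO, 0.622 times the WT mean as deposited and 1.018 times under total-read scaling. Without Iigp1 the other 6 GTPases were at 1.27 and 2.09 times the WT mean on these scales.

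**Figure D3:**
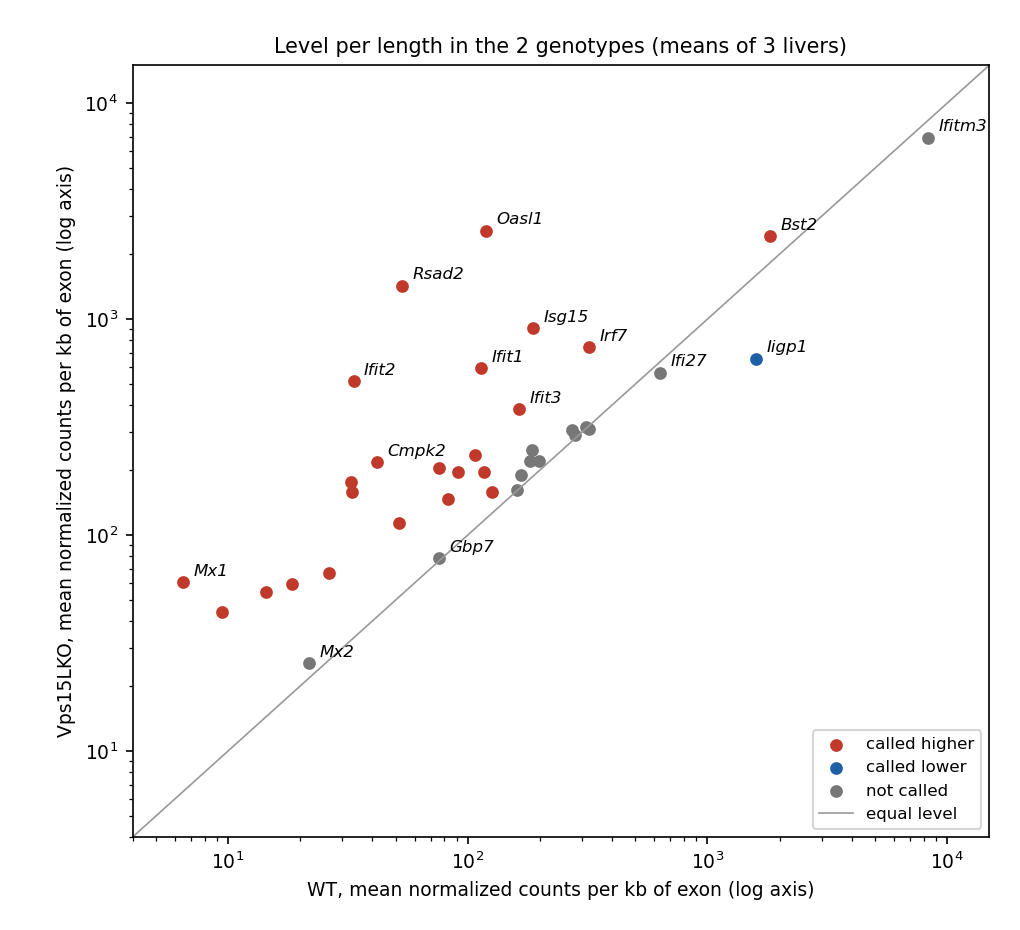
Mean normalized counts per kilobase of exon in WT (horizontal) against Vps15LKO liver (vertical), n = 3 livers each, both on log axes, with a line of equal level. Oasl1 and Rsad2 leave the middle of the WT range for the top, Ifitm3 stays near the line at the upper end, and Iigp1 lies below it.

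Ratios were taken between members that lie within 200000 bases of each other, the gene with the larger log2 fold change over the other. In 10 of the 12 pairs the ratios of both genotypes did not overlap, beside 72.7% of the 61787 pairs of tested genes at such a distance, so the count itself is not particular to the members. The factors between genotypes in these 10 ran from 1.204 (Gbp2 to Gbp3) to 7.80 (Mx1 to Mx2). The ratio of Mx1 to Mx2 rose from 0.316 ± 0.0557 in WT to 2.46 ± 0.180 in Vps15LKO livers (mean ± SD, n = 3). The ratio of Ifit2 to Ifit3, 7111 bases apart on the same strand, rose from 0.462 ± 0.0606 to 3.08 ± 0.870. The ratio of Oasl1 to Oasl2 rose from 1.52 ± 0.305 to 6.61 ± 1.33. With Rsad2 to Cmpk2 these were the 4 pairs with the largest factors. The ratios of Oas3 to Oas2 (0.886 ± 0.264 in WT, 1.17 ± 0.0384 in Vps15LKO) and of Oas1a to Oas3 (0.926 ± 0.0531 and 1.07 ± 0.116) overlapped between genotypes. With 3 livers against 3, an exact permutation test of a single ratio cannot go below p = 0.1, so these ratios are given as values.

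**Figure D4:**
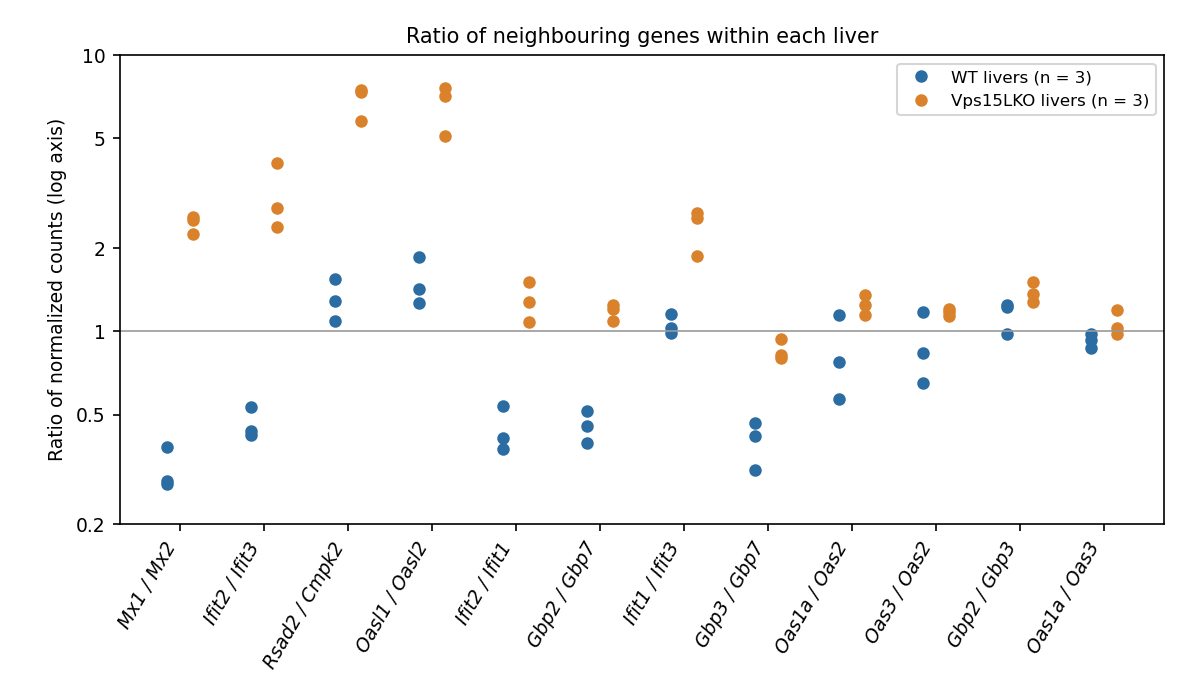
Ratio of the normalized counts (log axis) of 12 pairs of members that lie within 200000 bases of each other, in each of the 3 WT and 3 Vps15LKO livers, ordered by the factor between genotypes. From the left, Mx1 to Mx2, Ifit2 to Ifit3, Rsad2 to Cmpk2 and Oasl1 to Oasl2 are far apart between genotypes, while Oas3 to Oas2 and Oas1a to Oas3 overlap.

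The promoters of the members were searched for the sequences through which interferon acts. Windows from 250 bases before to 50 after the start were found for 29 of 37 members in RefSeq (GRCm38.p6). The ISRE core, GAAANNGAAA on either strand, was in the window of 16 of 29 members (55.2%), beside 3.99% of 27025 genes. It was in 11 of 18 members called higher and in 5 of 11 not called. The GAS, TTCNNNGAA, which reads the same on both strands, was in 8 of 29 members (27.6%), beside 9.55% of genes: 3 of 18 called higher and 5 of 11 not called. The E-box CACGTG, the site of the clock factors Bmal1 and Clock, was in 1 of 29 (Trim25), beside 8.09% of genes. A GAS can end in the GAA that begins an ISRE core, as it did in Bst2 and Ifitm3. The stretches below are 100 bases upstream of the start, written 5′ to 3′ on the strand of the gene, with every base of an ISRE core in capitals. They show the 5 members with an upstream core that rose most and, for contrast, Igtp, which had the lowest log2 fold change of the members with one and was not called.
Rsad2: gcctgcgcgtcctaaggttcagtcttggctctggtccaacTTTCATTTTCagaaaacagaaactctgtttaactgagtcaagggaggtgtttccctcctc
Oas1a: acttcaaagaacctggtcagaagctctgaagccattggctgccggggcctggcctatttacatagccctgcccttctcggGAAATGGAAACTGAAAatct
Ifit1: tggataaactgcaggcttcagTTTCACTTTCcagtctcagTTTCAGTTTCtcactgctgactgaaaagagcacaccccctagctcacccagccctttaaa
Isg15: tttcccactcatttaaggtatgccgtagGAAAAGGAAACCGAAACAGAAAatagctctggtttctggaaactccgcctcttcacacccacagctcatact
Oas3: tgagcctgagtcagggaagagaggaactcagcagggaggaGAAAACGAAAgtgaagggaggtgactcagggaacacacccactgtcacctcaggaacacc
Igtp: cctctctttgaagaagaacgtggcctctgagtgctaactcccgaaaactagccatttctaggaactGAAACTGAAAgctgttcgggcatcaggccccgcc

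The stretches lie at chr12:26456513-26456612 (minus strand) for Rsad2, chr5:120907526-120907625 (minus) for Oas1a, chr19:34640764-34640863 (plus) for Ifit1, chr4:156200825-156200924 (minus) for Isg15, chr5:120777675-120777774 (minus) for Oas3 and chr11:58199456-58199555 (plus) for Igtp. Rsad2 and Ifit1 carry the core on the other strand, 120 and 85 bases before the start, and Ifit1 has a second one further upstream. In Isg15, 3 cores overlap in 1 run that begins 78 bases before the start, and in Oas1a 2 overlap in a run that begins 20 bases before it. Igtp has a core of the same letters as the second one of Oas1a (GAAACTGAAA), 34 bases before the start, and was not called. In turn Oasl1, Oasl2, Ifit2, Cmpk2, Ifi44, Xaf1 and Irf7, which were called higher, hold no ISRE core in these windows.

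The rest of the pathway was described from lists of canonical genes. Together these lists held 159 genes of the table, of which 135 passed the filter, 89 were called higher (65.9%), 19 lower (14.1%) and 27 were not called, beside 33.5% and 33.0% of all tested genes. Under total-read scaling 120 were called higher and 4 lower, beside 66.8% and 11.1%. The counts by list below are descriptions to be read beside these shares, and nothing particular to a list was tested.

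Transcripts of the ligands were at or near 0. Of 21 interferon genes, 16 had no read in any of the 6 libraries, and in the others no library held more than 8. Ifng had 3 reads in the 3 WT libraries together and 12 in the 3 Vps15LKO libraries (0, 8 and 4). Ifnk had 1 and 8, Ifnb1 0 and 2, Ifnz 0 and 1, and Ifna16 1 and 0. None passed the filter, so ligand transcripts could not be compared at this depth. The libraries were enriched for polyadenylated RNA and sampled at a single time of day.

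Of 6 receptor genes, 4 were called higher and 1 lower. Ifngr1 and Ifngr2, both chains of the interferon gamma receptor, rose from 330.2, 294 and 313 to 1252, 1302 and 1233 (log2 fold change 2.01) and from 758, 878 and 875 to 1706, 1873 and 1693 (1.07). Il10rb, a chain shared by the interferon lambda and interleukin-10 receptors, rose from 248, 215 and 253 to 759.8, 769.8 and 753 (1.67). Ifnlr1, the other lambda receptor chain, which was named after its values were seen, had 1.33, 6.25 and 2.70 in WT and 93.9, 77.0 and 62.2 in Vps15LKO (4.29). Of the type I receptor chains, Ifnar1 had 635, 794 and 803 in WT and 921, 953 and 844 in Vps15LKO, so that all 3 Vps15LKO values lay above WT, but it missed the threshold (0.29, adjusted p = 0.051, limma, and 1.015 and called higher under total-read scaling). Ifnar2 had 2322, 2046 and 1944 in WT and 1724, 1784 and 1561 in Vps15LKO (−0.31, called lower, but 0.41 and called higher under total-read scaling). On the total-read scale all 6 receptor genes were called higher, and differences between receptors were not tested.

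Of 5 kinases and STATs, 1 was called, Jak2, which had 414, 468 and 346 in WT and 568, 577 and 499 in Vps15LKO (log2 fold change 0.43). Under total-read scaling all 5 were called higher. Of 10 brakes on signalling, 6 were called higher and 2 lower (9 and 1 under total-read scaling). Tnfaip3 (A20), a ubiquitin-editing enzyme, rose from 57.0, 59.96 and 72.8 to 379, 350.1 and 402 (2.56), and Trim30a from 102, 136 and 173 to 386, 405 and 390.4 (1.55). Socs1, an inhibitor of Jak kinases, rose from 11.9, 22.5 and 13.5 to 45.8, 40.5 and 38.9 (1.38), while Socs3 was not called (0.47, adjusted p = 0.21, limma, and 1.197 and called higher under total-read scaling). Rnf125, a ubiquitin ligase that targets RIG-I for degradation, fell from 1626, 1804 and 1312 to 698, 795 and 424 (−1.34, and −0.62 under total-read scaling).

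Of 5 other interferon regulatory factors, 2 were called higher and 3 lower (2 and 0 under total-read scaling). Irf8, a factor of myeloid cells, rose from 160.4, 196 and 136 to 786, 763 and 757 (log2 fold change 2.24). Irf3, the factor that Mavs and Sting activate, had 1311, 1154 and 1144 in WT and 645, 739 and 678 in Vps15LKO (−0.81), and Irf2, an antagonist of Irf1, had 1119, 1257 and 895 in WT and 672, 629.6 and 555 in Vps15LKO (−0.81). Under total-read scaling both were at −0.08 and not called.

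Of 20 other sensors and adaptors, 12 were called higher and 3 lower (18 and 1 under total-read scaling). Endosomal sensors rose: Tlr13, a receptor for bacterial ribosomal RNA, from 37.1, 52.5 and 39.1 to 331, 332 and 327 (log2 fold change 2.93), Tlr9, a receptor for DNA, from 15.9, 25.0 and 35.0 to 183, 203 and 168 (2.88), and Tlr3, a receptor for double-stranded RNA, from 166, 185 and 139 to 298, 305 and 311 (0.91). The DNA-sensing pair rose too. Sting1 (Tmem173 in the annotation) went from 49.1, 39.97 and 60.7 to 275, 283 and 352 (2.59), and Cgas from 17.2, 8.74 and 16.2 to 45.1, 54.3 and 39.6 (1.69). Mavs, the mitochondrial adaptor of the RIG-I family, fell from 2068, 2055 and 2002 to 836, 1004 and 807 (−1.22, and −0.49 and still called lower under total-read scaling).

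Of 15 nucleases and RNA-modifying proteins, 8 were called higher and 4 lower (12 and 1 under total-read scaling). Apobec3, a cytidine deaminase that restricts retroviruses, rose from 65.0, 84.9 and 95.7 to 537, 447 and 732 (log2 fold change 2.78), and Isg20, an exonuclease, from 46.4, 53.7 and 68.7 to 147, 135 and 175 (1.43). Adar, which edits double-stranded RNA, rose by 0.65 and Eif2ak2 (PKR), a kinase activated by it, was not called (0.15, and 0.87 and called higher under total-read scaling). Dnase1l3, a nuclease of extracellular DNA, fell from 2269, 2386 and 2204 to 1116, 1208 and 839.5 (−1.13, and −0.41 under total-read scaling).

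Of 77 other interferon-stimulated genes, 74 were tested, of which 56 were called higher, 6 lower and 12 not (68 and 1 under total-read scaling), with a median log2 fold change of 1.04. Cxcl10, a chemokine that draws T cells, rose from 109, 98.7 and 127 to 4589.6, 3376 and 4508 (5.204, adjusted p = 1.4e-07, limma), more than any member. Ifi27l2b rose from 41.1, 27.5 and 51.2 to 563, 579 and 467 (3.75) and Ifi27l2a from 71.6, 63.7 and 158 to 424, 506 and 629 (2.50). Both are relatives of Ifi27. Gbp10, named after its values were seen, fell from 211, 392.2 and 322 to 87.8, 152 and 66.5 (−1.63). It shares 1792 of its 3873 exon bases with Gm43302 on the same strand, so its reads are uncertain.

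**Figure D5:**
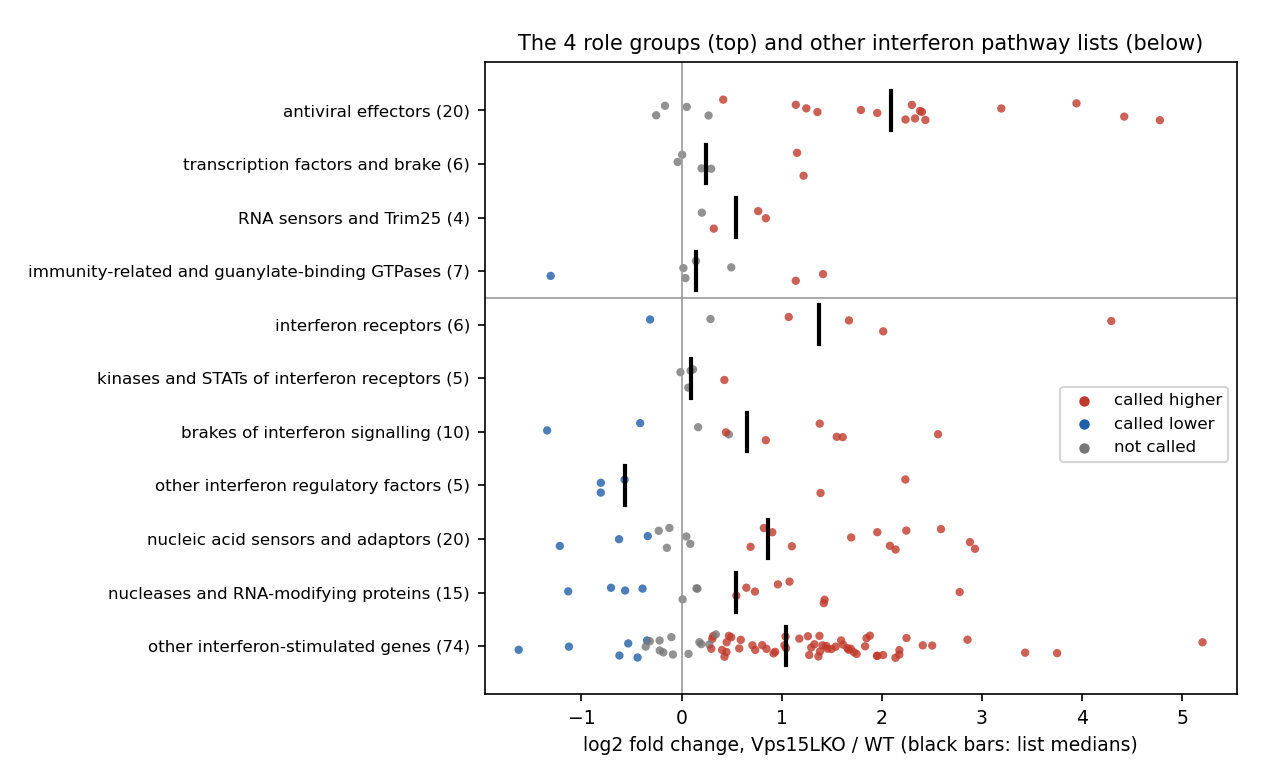
Log2 fold change of each tested gene (points, coloured by call) in the 4 role groups of the module (top) and in the other lists of the pathway (below), with the number of genes in brackets and the list median as a black bar. The vertical spread of points within a list is for legibility. Medians run from 2.10 in the antiviral effectors to −0.57 in the other interferon regulatory factors, and Cxcl10 is the point at 5.204.

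Markers of other cell types moved with the genotype as well. Of 12 markers of Kupffer cells and macrophages, 9 were called higher (11 under total-read scaling), beside 33.5% of all tested genes (66.8%), and their summed level lay between 8517 and 10193 normalized counts in WT livers and between 24484 and 28358 in Vps15LKO livers (2.88 times the WT mean). The log2 fold changes were 5.31 for Cx3cr1, 3.57 for Ccr2, 3.15 for Cd68, 2.45 for Lyz2, 1.46 for Adgre1, 1.45 for Csf1r, 1.39 for Cd5l, 1.08 for Marco and 0.99 for Vsig4, and Clec4f (0.40), Mrc1 (−0.04) and Timd4 (−0.62) were not called. Under total-read scaling Clec4f (1.12) and Mrc1 (0.69) were called higher and Timd4 was at 0.10. All 4 pan-leukocyte markers were higher (3711 to 4183 in WT, 9400 to 10938 in Vps15LKO), as were all 5 markers of plasmacytoid dendritic cells (322 to 381 and 695 to 802) and 8 of 14 lymphocyte markers (171 to 222 and 485 to 552), of which 4 did not pass the filter. Of 6 neutrophil markers 3 were called higher and 3 did not pass the filter. Their summed level was near the floor in WT (13.5 to 22.5) and at 179 to 242 in Vps15LKO. Ly6g, which did not pass, had 0 reads in every WT library and 3, 5 and 7 in the Vps15LKO libraries. A single abundant gene weighed on some of these sums. Without Lcp1 the other 3 pan-leukocyte markers were at 5.17 times the WT mean, and without Tcf4, 76.2% of the Vps15LKO sum, the other 4 plasmacytoid markers were at 3.26 times. The 8 markers of stellate cells and fibroblasts summed to 4.16 times and the 6 of cholangiocytes to 22.5 times the WT mean, all called higher. Spp1 made up 90.1% of the Vps15LKO sum of the cholangiocyte markers, and the other 5 together were at 9.08 times the WT mean. Of 8 endothelial markers 3 were higher and 4 lower (0.929 times), but 5 higher and none lower under total-read scaling, where Stab2 turned from −0.36 to 0.37. Of 8 hepatocyte markers 7 were lower under both scalings (0.346 times as deposited). In whole liver, more cells of a type and more RNA per cell cannot be told apart. The part of these cells in the levels of the 37 genes was not tested.

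The WT livers differed among themselves. WT replicate 3 had the highest WT value in 29 of 37 members, beside 32.9% of all tested genes, and its members were at a median of 1.35 times the mean of the other 2 WT livers. Without it 27 members were called higher in place of 23, with Mx2, Stat2, Trim25 and Ifi47 added. Over all tested genes 5152 were called higher without WT replicate 3, in place of 5163. Among Vps15LKO livers, replicate 2 was highest in 23 of 37 members, beside 41.4% of all tested genes, and its median was 1.09 times the mean of the others.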

How the data were processed

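RNA from whole liver was enriched for polyadenylated transcripts and sequenced (3 WT, 3 Vps15LKO; libraries as labelled). Per the methods and labels, the authors used SOAPnuke to filter reads, HISAT2 to map them to GRCm38, featureCounts (Subread) to count them and DESeq2 to normalize; versions, strand and multi-mapping settings are not given in the sources used here. The deposited signal is the count divided by 1 size factor per library. In every library 100% of values were whole multiples of 1 read (tolerance 0.01), worth 1.25 to 1.35 in WT and 0.707 to 0.810 in Vps15LKO, and whole reads were recovered for count tests. Chi-square per gene between replicates was 14.0 to 36.4, above sampling noise for each pair. Intervals for counting error are not given, since the spread between livers includes it.

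The filter asked for 20 normalized counts or more in 3 or more livers, which left 15430 genes. They were compared on log2(normalized count + 1) with limma 3.58.1 (lmFit, eBayes with a trend, two-sided) in R 4.3.3. The code was run first on simulated data in which few genes changed, evenly in both directions. That run does not bear on the choice of scaling in these libraries. Alternatives were pseudocounts, filters, scalings, edgeR 4.0.16 (quasi-likelihood), DESeq2 1.42.0, limma voom, fold limits, each replicate left out and replicate number as a block. Symbols came from GENCODE M21 (55141 genes matched), promoters from RefSeq. Tables and plots used Python 3.11.15, pandas 2.3.3, numpy 2.4.6 and matplotlib 3.10.9. The members and lists were chosen with earlier results of these data known, so counts over them are descriptions. Named genes were all members, preset key genes of each list, and the 3 called genes with the largest absolute log2 fold change and a mean of at least 100 per list. One of the preset genes is not reported here. The gene symbols Mnda and Ifi211 matched 1 gene, counted once.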

Additional observations from a re-analysis of the deposited data

How the results depend on the processing

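Over 21 alternatives, 19 of the 23 members called higher and Iigp1 kept their calls in each one that could be fitted (Mx1 did not pass the filter that asked for at least 20 normalized counts in all 6 livers). Ifih1 and Dhx58 lost theirs only at a fold of at least 2, and Bst2 and Ddx58 are given in the report; Ddx58 also lost its call without a filter and in limma without a trend. Total-read scaling called 36 members higher and quantile normalization 28, where Ifitm3, Irf1, Stat2 (0.44), Trim25 (0.57) and Irgm1 (0.42) were added, and upper-quartile scaling called 25, where Irf1 and Irgm1 (0.27) were added. Leaving out 1 liver gave 21 to 27 members called higher and 1 to 2 called lower, Ifitm3 being the second without WT replicate 2 (−0.38). Irf1 was called in 8 settings. WT and Vps15LKO livers of the same number did not deviate together (correlations of −0.01, −0.01 and 0.05), so replicate number was not treated as a pairing. With the replicate block 24 members were called higher, Irf1 being added, and 1 lower. The sign of genes that were not called turned for Mx2 under quantile normalization (−0.23), Ifitm3 under total-read scaling (0.47) and quantile normalization (0.47), Ifi27 likewise (0.56 and 0.0103), and Irf5 under total-read scaling (0.69), TMM (0.0057), upper-quartile scaling (0.084), quantile normalization (0.15) and limma voom (0.0065). With 1 liver left out, Ifi35 ran from −0.048 to 0.15, Irf5 from −0.12 to 0.11, Irf9 from −0.060 to 0.074, Igtp from −0.074 to 0.12 and Gbp7 from −0.076 to 0.16. Over all genes, 5163 were called higher and 5099 lower, against 10300 and 1712 under total-read scaling. The counts were 3228 and 1957 at a fold of at least 2, and 5755 and 4241 with upper-quartile scaling. Quantile normalization gave 4692 and 5801, and the replicate block 5065 and 4983. Leaving out 1 liver gave 4648 to 5152 called higher and 4450 to 5070 lower. The cause of these differences was not tested. At this depth 1 to 3 reads are the floor, so the interferon ligands could not be compared.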

Other observations

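The genes here belong to the other interferon-stimulated genes and were grouped by family after their values were seen, so these are values only, with nothing particular to a family tested. Of that list 56 of 74 tested genes (75.7%) were called higher, beside 33.5% of all tested genes. Among the enzymes that attach Isg15 to proteins, those called higher were Uba7, the activating enzyme (log2 fold change 0.92), Ube2l6, the conjugating enzyme (0.32), and Herc6, the main ligase in mouse (0.74), beside 2.33 for Isg15 itself. Of the p200 family of DNA-binding proteins, the 5 genes in the list were called higher (Ifi203 1.26, Ifi204 1.61, Ifi205 1.59, Ifi207 1.88 and Ifi211 1.85), as were the 5 Schlafen genes (Slfn1 3.43, Slfn2 2.41, Slfn5 1.38, Slfn8 2.01 and Slfn9 1.66). The immunoproteasome subunits Psmb8, Psmb9 and Psmb10 were called higher by 0.71, 0.50 and 0.43, and the peptide-loading genes Tap1, Tap2 and Tapbp by 0.59, 0.47 and 1.03, while the proteasome activators Psme1 and Psme2 were not called (0.20 and 0.07, and 0.92 and 0.80 and called higher under total-read scaling).

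The guanylate-binding proteins went in both directions. Gbp4, Gbp5, Gbp6, Gbp8 and Gbp9 were called higher (0.85, 1.498, 1.04, 1.69 and 1.67), as Gbp2 and Gbp3 were. Gbp10 (−1.63) and Gbp11 (−1.12) were called lower, Gbp11 not under total-read scaling (−0.41). These genes are near copies of each other, so reads may be split between them, and Gbp6 shares 1726 exon bases and Gbp10 1792 with Gm43302 on the same strand.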
